A study of Mus musculus with 2 samples.

Results

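Among the synovial macrophages of arthritic mice, a population of 863 cells was defined by *Vsig4*, *S100b* and *Ecscr*, and these cells are called Vsig4 S100b macrophages here. They were 863 of 7322 macrophages and of 12956 barcodes in all. The cells were chosen by measured values. A cell counted as a macrophage where it had at least 500 genes, at most 10% mitochondrial UMIs (unique molecular identifiers, each counting 1 captured RNA molecule), at least 10 UMIs of *C1qa*, *C1qb* and *C1qc* together, and fewer than 5 UMIs of *Ccl17* and *Cd209a* together. Each macrophage then received 7 scores, each the mean z-score of 3 genes on the log scale, and a Vsig4 S100b macrophage had its highest score for *Vsig4*, *S100b* and *Ecscr*, with a value of at least 0.5. The other sets were B (*Ednrb*, *C4b*, *Enpep*), C (*Gpnmb*, *Ms4a7*, *Cd93*), D (*Olr1*, *Pdpn*, *Rgs1*), E (*Cav1*, *Ndrg1*, *Tppp3*), F (*Aqp1*, *Ildr2*, *Uaca*) and G (*H2-Aa*, *Ccr2*, *Ciita*), and macrophages with no score of at least 0.5 are called no-set cells. The levels of these genes were therefore fixed by the selection and are given only as a description.

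Macrophages of the joint form a layer at the surface of the synovial membrane, the lining, and also lie in the tissue beneath it, the sublining. Lining macrophages are known for the chemokine receptor gene *Cx3cr1*, the lipid receptor gene *Trem2* and genes of tight junctions, and they form a barrier between the joint space and the tissue. VSIG4 is a complement receptor of tissue-resident macrophages that binds fragments of C3 and takes up opsonised particles. S100b is a calcium-binding protein best known from Schwann cells, astrocytes and chondrocytes, and *Ecscr* encodes a surface protein best known from endothelium.

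The cells came from wild-type C57BL/6 mice that were aged 7 to 10 weeks when the experiments began. Mice of the β-glucan group were given one intraperitoneal dose of 1 mg β-glucan, a polysaccharide of fungal cell walls used to induce trained innate immunity, and those of the PBS group received the vehicle. After 7 days, arthritis was induced in both groups, and CD45+CD11b+ cells of the hind paw synovium were sorted at day 17 (4 mice pooled per group). The sample labels describe arthritogenic antibodies with lipopolysaccharide, whereas the study's text gives K/BxN serum transfer, which is the model named here. Each group was 1 library, so no difference between β-glucan and PBS has a replicate check, no test was possible, and all intervals are 95% intervals that cover counting error only. The β-glucan library had 81611849 UMIs over 7196 barcodes and the PBS library 73874602 UMIs over 5760 barcodes. Of the barcodes, 7 occurred in both libraries, none of them among the Vsig4 S100b macrophages.

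The 250 bases before the start of the canonical transcript of 3 genes are shown because *Vsig4* and *S100b* define the cells and *Sparc*, which the selection did not use, led the named genes when ordered by the weaker of the ratios in both libraries. They were read from GRCm39 with the starts of the transcripts marked Ensembl canonical in GENCODE vM39, *Vsig4* at chrX:95337045-95337294 on the minus strand, *S100b* at chr10:76089234-76089483 on the plus strand and *Sparc* at chr11:55310907-55311156 on the minus strand. *S100b* and *Sparc* also have annotated transcripts that start further upstream, so their windows lie inside the whole annotated gene. Capitals mark GAGGAA, a core of sites for the macrophage factor PU.1, on either strand. *Vsig4* had 2 matches, at 155 and 53 bases before the start, and the windows of *S100b* and *Sparc* had 0. Of 21770 windows of the same length before canonical transcripts of protein-coding genes, 22.9% held the motif. The E-box CACGTG, the letters bound by MITF-family factors among others, was in 6.26% of all windows and had 0 matches in these 3. A match is a description of the letters, and nothing follows from it about binding.
Vsig4: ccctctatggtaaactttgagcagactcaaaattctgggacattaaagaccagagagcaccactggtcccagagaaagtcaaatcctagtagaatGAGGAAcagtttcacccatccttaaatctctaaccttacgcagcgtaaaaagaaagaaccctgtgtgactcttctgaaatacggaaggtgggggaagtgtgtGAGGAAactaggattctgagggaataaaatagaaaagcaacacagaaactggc
S100b: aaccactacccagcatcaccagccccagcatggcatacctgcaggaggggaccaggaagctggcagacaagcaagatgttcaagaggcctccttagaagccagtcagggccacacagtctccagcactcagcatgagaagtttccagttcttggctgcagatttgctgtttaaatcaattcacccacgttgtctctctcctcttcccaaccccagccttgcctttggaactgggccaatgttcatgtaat
Sparc: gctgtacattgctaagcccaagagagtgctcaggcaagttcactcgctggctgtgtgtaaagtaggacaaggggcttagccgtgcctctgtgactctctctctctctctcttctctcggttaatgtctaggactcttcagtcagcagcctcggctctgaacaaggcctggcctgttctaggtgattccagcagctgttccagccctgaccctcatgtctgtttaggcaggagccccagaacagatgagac

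The β-glucan library held 484 Vsig4 S100b macrophages among 4242 macrophages (11.4%, exact binomial interval 10.5 to 12.4%), and the PBS library 379 among 3080 (12.3%, 11.2 to 13.5%). The intervals overlapped. As a share of all cells kept the values were 8.50% (7.79 to 9.25%) and 8.32% (7.54 to 9.16%), in the opposite order. The cells had a median of 15634.5 UMIs with β-glucan and 18510 with PBS, against 13008 and 15245 in the other macrophages. Mitochondrial UMIs made up a median of 3.22% and 3.44%. Since a deeper cell shows more of a low gene, the assignment was repeated on cells thinned to 8000 UMIs, which left out 39 and 22 of the cells, and gave shares of 11.6% and 12.0%.

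Near the limit the population had no gap. The score ran from 0.501 to 4.83 with a median of 1.61. There were 36 cells between 0.5 and 0.6, and 21 cells just under the limit, between 0.4 and 0.5, had this score as their highest. The cells just inside held a mean of 7.18 *Vsig4*, 0.725 *S100b* and 0.199 *Ecscr* UMIs per 10000, and the cells just outside 8.28, 0.251 and 0.0627. In all members the means were 18.1, 2.63 and 0.851. The second-highest score was that of set D in 289 cells and of set F in 258, and a lead of under 0.25 over the second score was found in 127 cells.

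Detection of the 3 genes was uneven. At least 1 UMI of *Vsig4* was seen in 77.1% of the cells, of *S100b* in 77.1% and of *Ecscr* in 59.7%, and 32.2% of the cells had all 3. To set the background from free RNA, B cell-like cells of the same libraries (at least 5 UMIs of *Cd79a*, *Cd79b* and *Ms4a1* and fewer than 10 of the C1q genes) were compared at 2000 UMIs per cell. *Vsig4* was then seen in 71.1% and 67.8% of the Vsig4 S100b macrophages of the β-glucan and PBS library, in 8.77% and 7.48% of the other macrophages and in 0.735% and 2.30% of the B cell-like cells. *Olfml3* and *Vcan*, label markers that the selection did not use, were seen in 47.9% and 38.8% of the members with β-glucan and in 55.1% and 31.7% with PBS. In the B cell-like cells *Olfml3* was seen in 1.47% and 0% and *Vcan* in 0.735% and 0.461%. The B cell-like cells had median depths of 5447 and 5954 UMIs before thinning.

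Markers of other cell types were checked because *S100b* and *Ecscr* are known from other cells. The 8 pan-macrophage markers, of which the selection required 3, summed to 14174 CPM (UMIs per 1000000 UMIs) in the β-glucan members and 14307 in the PBS members. Of the 6 Schwann cell markers, *Sox10* and *Cdh19* were at 0 in both libraries. The list summed to 673 and 698 CPM, against 484 and 494 CPM in the other macrophages. Of this, *Pmp22*, which macrophages also express, gave 606 and 630 CPM (358 and 374 in the others) and *Mbp* 67.3 and 67.3 (125 and 119 in the others). Of the 5 chondrocyte markers, *Acan*, *Col2a1* and *Sox9* were at 0 in both libraries, and the list summed to 0.864 and 1.80 CPM (10.3 and 5.17 in the others). The 7 endothelial markers summed to 3.21 and 2.77 CPM (12.8 and 7.44 in the others), with *Pecam1* the most abundant (1.85 and 1.11 CPM), *Emcn* at 0 with β-glucan and *Tie1* at 0 with PBS. Of the 5 mural cell markers, *Cspg4*, which was also among the extracellular matrix genes, gave 349 of 350 CPM in the β-glucan members and 364.9 of 365.5 in the PBS members (the list summed to 118 and 125 CPM in the others), and *Rgs5* was at 0 in both. The 7 fibroblast markers summed to 27.3 and 21.3 CPM, below 220 and 136 CPM in the other macrophages. Of the Schwann cell list, *Pmp22* was thus higher in the members than in the other macrophages and *Mbp* lower, with *Sox10* and *Cdh19* at 0, and the chondrocyte and endothelial lists were lower in the members.

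The Vsig4 S100b macrophages were then set against all other macrophages of the same library. Of 6877 genes with at least 20 CPM in the members or the other macrophages of each library, 142 (2.06%) were at least 2-fold higher in both libraries and 118 (1.72%) at least 2-fold lower, without the genes of the selection. Because the cells were chosen on the same profiles, these counts are a description and no test. The median log2 ratio over all genes was -0.01 in both libraries. The plot of each library's ratio against the other's shows these genes in opposite corners.

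**Figure D1:**
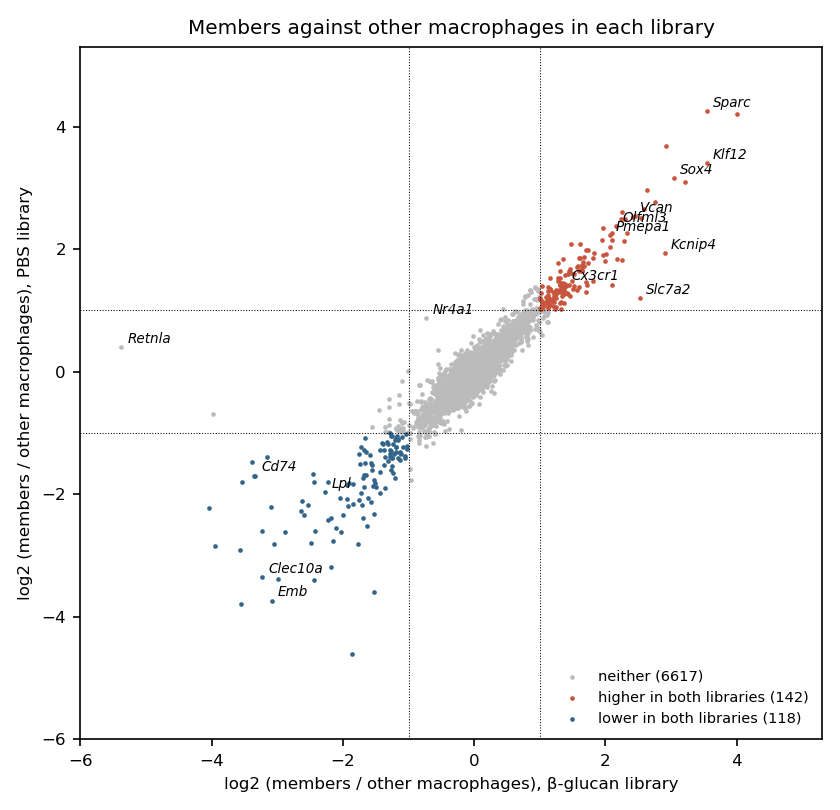
Log2 ratio of Vsig4 S100b macrophages over other macrophages for the β-glucan (x axis) and PBS (y axis) library, 1 point per gene of at least 20 CPM, with dotted lines at the 2-fold limits. The 142 genes higher in both libraries and the 118 lower lie along the diagonal, while *Retnla* and *Nr4a1* lie off it, with a ratio below 0 with β-glucan and above 0 with PBS.

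Among named genes of at least 50 CPM in the members of both libraries, ordered by the weaker of their 2 ratios, the first was *Sparc*, which encodes a secreted collagen-binding glycoprotein of the matrix. Its level was 1081 CPM in β-glucan members and 1054 in PBS members, against 92.7 and 55.2 in the other macrophages, a log2 ratio of 3.54 (3.49 to 3.59) and 4.26 (4.19 to 4.32). *Vcan*, the gene of the proteoglycan versican, was at 294 and 260 CPM against 54.8 and 45.0. *Olfml3*, a secreted olfactomedin-family protein also known from microglia, was at 336 and 396 CPM against 75.1 and 76.2. *Fermt2*, kindlin-2, which activates integrins, was at 139 and 169 CPM against 33.0 and 41.4. *Amotl1*, an angiomotin-family protein of cell junctions, was at 77.4 and 62.5 CPM against 11.5 and 9.17. These levels were alike in both libraries beside their distance from the other macrophages.

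The 20 highest genes also held regulators of transcription and signalling. The transcription factor gene *Klf12* was at 128 and 107 CPM against 10.96 and 10.1, *Sox4* at 60.7 and 55.7 against 7.38 and 6.23, and *Nfia* at 793 and 732 against 225 and 192. *Cxxc5*, a CXXC zinc finger protein, was at 66.8 and 63.9 CPM against 14.0 and 18.0. *Adarb1*, which encodes an RNA-editing adenosine deaminase, was at 135 and 153 CPM against 23.1 and 27.1. *Pmepa1*, a TGF-β-induced membrane protein that dampens SMAD signalling, was at 1745 and 1943 CPM against 417 and 416, and had a UMI in 99.2% and 100% of the cells. The 20 genes also held the calcium channel gene *Cacna1a* (148 and 139 CPM against 34.5 and 28.8), the potassium channel-interacting *Kcnip4* (116 and 78.0 against 15.5 and 20.5) and the semaphorin receptor gene *Plxna4* (199 and 188 against 51.2 and 50.5). *Kcnip4* overlaps 26 other annotated genes of the same strand and may share their reads, as may, with 1 to 3 such overlaps, *Klf12*, *Sox4*, *Amotl1*, *Ctla2a*, *Cacna1a*, *Pmepa1*, *Fermt2*, *Cxxc5*, *Nfia*, *Arsb* and *Efcab11*.

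Of the remaining genes, *Arsb*, arylsulfatase B, a lysosomal enzyme that degrades dermatan and chondroitin sulfate, was at 532 and 454 CPM against 151 and 125. *Chst1*, a carbohydrate sulfotransferase, was at 114 and 107 CPM against 18.3 and 13.6. The phospholipase gene *Plaat3* (139 and 132 CPM against 28.7 and 29.98) and the cysteine protease inhibitor gene *Ctla2a* (115 and 130 against 24.2 and 21.4) followed, as did *Tcim* (138 and 131 against 25.3 and 22.7) and *Tpbgl* (65.8 and 70.0 against 13.4 and 12.4). Outside the 20 and picked after the values were seen, the lysosomal protease gene *Ctsd* was at 2577 and 2394 CPM against 776 and 699. In both libraries the members had the highest level of the 8 macrophage groups for all 20 genes, compared group by group. The group nearest to them was set F or D for most of these genes, for example set F for *Fermt2* (115 and 124 CPM) and set D for *Olfml3* (138 and 153 CPM).

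**Figure D2:**
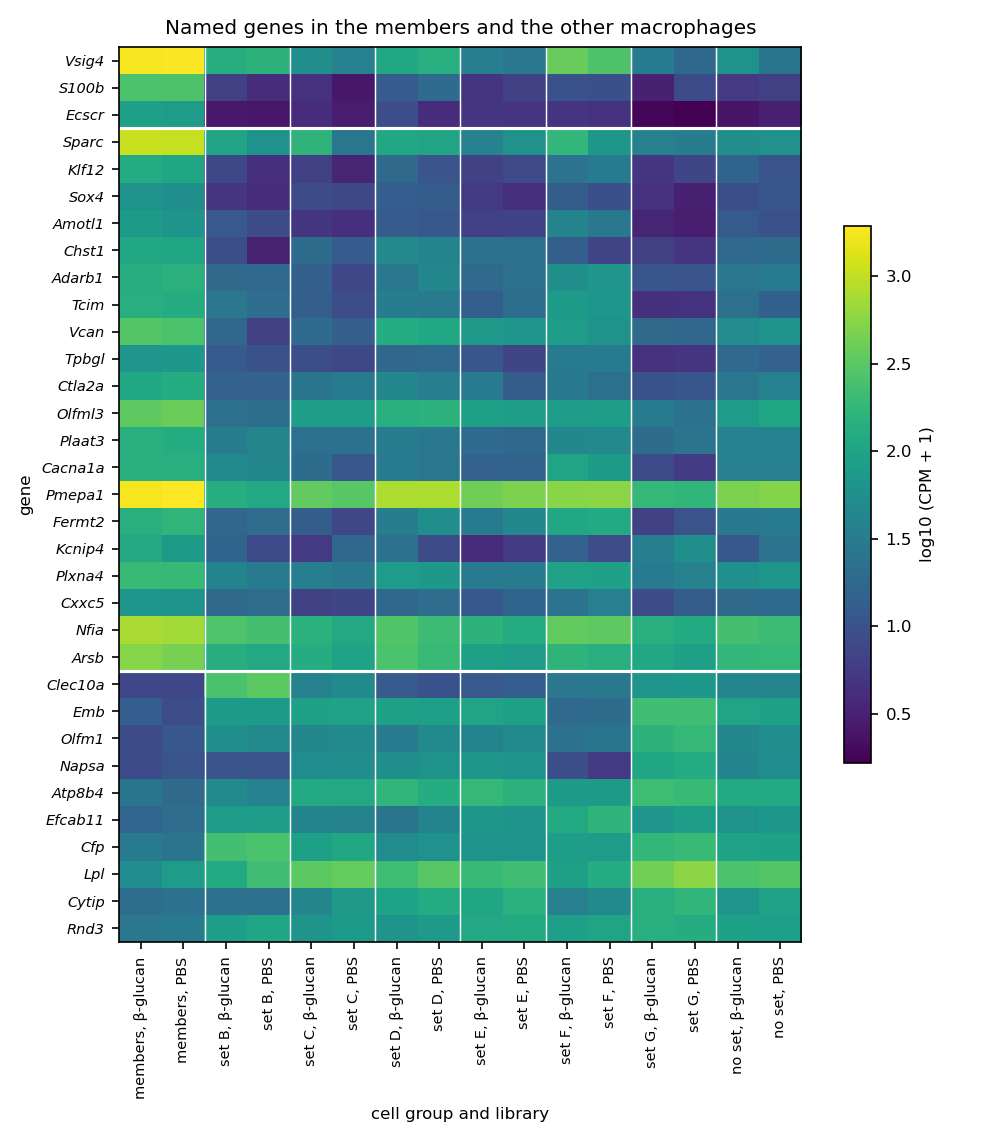
Levels of the 3 selecting genes (top), the 20 named genes highest in the members and the 10 named genes lowest in them, as log10 of CPM + 1, in each macrophage group and library. The members show the highest level of all 20 genes in both libraries, and sets D and F come closest for most of them.

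Across the 6877 genes and among sets B to G, the profile nearest to the members was that of set F (Pearson r across genes of 0.967 with β-glucan and 0.962 with PBS, on log2 of CPM + 1), followed by set D (0.942 and 0.941). The no-set cells were not compared in this way. The farthest was set G, with 0.883 and 0.887. Genes are not independent replicates, so these values only order the groups. Of the genes, 2.24% and 2.60% were at least 2-fold apart between members and set F, and 8.07% and 8.01% between members and set G.

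Genes of the lining list were higher in part. Of its 6 measured genes outside the selection, 2 passed the 2-fold limit upward and 0 downward, against 2.06% and 1.72% of all genes, with a median log2 ratio of 0.67. These were *Sparc* and *Cx3cr1*, the fractalkine receptor gene, at 492 and 413 CPM against 188 and 154. *Trem2* was at 785 and 884 CPM against 550 and 599, and *Itgb8* was at 0 UMIs in the members of both libraries. Of 15 tight junction and polarity genes only 3 were measured, and *Pard3b*, a polarity gene, passed the limit (53.0 and 49.2 CPM against 20.9 and 19.02). *Tjp1*, which encodes ZO-1, was at 2.10 and 1.25 CPM in the members. *F11r*, the gene of junctional adhesion molecule A, was at 252 and 256 CPM against 131 and 127, with log2 ratios of 0.95 and 1.01 on both sides of the limit. Of the lining and tight junction lists, the chemokine receptor gene was thus higher, while 12 of the 15 tight junction and polarity genes did not reach 20 CPM.

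Of 6 sublining resident markers 3 passed the limit upward, against 2.06% of all genes (median log2 ratio 0.29). *Lyve1*, a hyaluronan receptor gene, was at 1707 and 1528 CPM against 646 and 631. *Folr2*, a folate receptor gene, was at 697 and 731 CPM against 299 and 309, and the phosphatidylserine receptor gene *Timd4* at 47.9 and 45.9 against 19.1 and 18.7. The mannose receptor gene *Mrc1* lay on the other side, with 785 and 608 CPM against 1410 and 1360. So did *Cd163*, read in members without a *Vsig4* UMI and in members with at least 10. It was at 177 and 248 CPM in these with β-glucan, against 348 in the other macrophages. With PBS it was at 145 and 208 CPM against 309. *Retnla*, also on this list, was at 8.76 and 1271 CPM against 365 and 966, and so in the sums below the others with β-glucan only. The PBS sum rested on 19 members of at least 50 *Retnla* UMIs, and the other PBS members were at 19.9 CPM. Of the list, 0 genes passed the limit downward. *Lyve1* did not set the members apart from sets B (1483 and 1380 CPM) and F (1691 and 1764 CPM), whereas it was at 136 and 134 CPM in set C. The members thus held both *Cx3cr1* and *Lyve1*, genes commonly used to tell lining from sublining cells, and *Cx3cr1* was at 61.7 and 60.9 CPM in set F and at 330 and 258 in set D.

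Among 12 measured extracellular matrix genes, 5 were higher and 1 was lower (median log2 ratio 0.65), against 2.06% and 1.72% of all genes. Beside *Sparc*, *Vcan* and *Olfml3*, these were *Cspg4*, the gene of the NG2 proteoglycan (349 and 365 CPM against 111 and 113), and the basement membrane gene *Nid2* (35.4 and 37.3 against 14.1 and 13.8). *Fn1*, fibronectin, was at 2981 and 4011 CPM against 1846 and 2103, short of the limit. The lower gene was *Thbs1*, thrombospondin-1, at 7.41 and 2.08 CPM against 21.4 and 25.3. *Vcan* is also in the list of 8 monocyte markers, of which it was the only one measured (*Ly6c2* was at 1.85 and 0.139 CPM in the members, *Plac8* at 0.247 and 0).

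Of 6 measured complement genes 1 was higher and 1 lower (median log2 ratio 0.41), against 2.06% and 1.72% of all genes. The lower one was *Cfp*, properdin, which stabilises the alternative pathway convertase, at 28.6 and 24.0 against 114 and 122. *C3ar1* (581 and 566 CPM against 471 and 405) and *Itgam* (464 and 465 against 335 and 358) were short of the limit. Of 16 phagocytic and scavenger receptor genes, 3 were higher and 0 lower (median 0.32), against the same shares of all genes. Beside *Timd4* these were the integrin gene *Itgb5* (440 and 421 CPM against 182 and 146) and the collectin receptor gene *Colec12* (290 and 217 against 140 and 104.2).

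The measured MHC class II genes and part of the cytokine and chemokine genes were lower than in the pooled other macrophages. All 5 measured MHC class II genes were lower (median log2 ratio -2.44), for example *H2-Ab1* at 77.3 and 404 CPM against 812 and 1125 and *Cd74* at 228 and 1042 against 2319 and 3379. The selection bears on this directly, since set G was scored on *H2-Aa* and *Ciita* and its cells were kept out. *Cd74* was at 9959 and 12686 CPM in set G. With PBS the members ranked only 4 of 8 groups from the top for *H2-Ab1* and *Cd74*, above set F (118 and 364 CPM), and with β-glucan they ranked 8 of 8. The PBS levels rested in large part on 19 members of high *Retnla* (at least 50 UMIs), without which *H2-Ab1* was at 188 and *Cd74* at 409 CPM. Of 15 cytokine and chemokine genes 7 were lower and 0 higher (median -0.90), against 1.72% and 2.06% of all genes. *Pf4* was at 1265 and 997 CPM against 2767 and 2725, the neutrophil attractant gene *Cxcl2* at 12.0 and 33.4 against 122 and 109, and the monocyte attractant gene *Ccl2* at 14.7 and 11.4 against 42.2 and 56.6. Of 12 lipid handling genes 2 were lower, *Lpl*, lipoprotein lipase (50.1 and 80.9 CPM against 242 and 317), and the fatty acid-binding *Fabp5* (16.05 and 22.2 against 75.3 and 77.4).

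Ordered by the weaker of the ratios in both libraries, the lowest of the named genes was *Clec10a*, a galactose-type lectin gene, at 6.42 and 6.51 CPM against 60.3 and 66.6. The transporter chaperone gene *Emb* (12.6 and 7.90 CPM against 107 and 105), *Olfm1* (7.28 and 10.3 against 60.2 and 71.8), the aspartic protease gene *Napsa* (7.04 and 9.28 against 51.8 and 57.2) and *Atp8b4*, a P4-type ATPase gene (24.9 and 18.3 against 140 and 127), were the next. *Efcab11*, *Cytip* and the small GTPase gene *Rnd3* completed the 10 with *Cfp* and *Lpl*. For 8 of the 10, the members were the lowest of the 8 groups in both libraries. *Napsa* with PBS (set F at 4.44 CPM was lower) and *Cytip* with PBS (20.9 CPM in the lowest other group) were the exceptions.

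Outside the semaphorin family, few genes of the remaining lists passed the limit. Semaphorins, plexins and neuropilins had 2 higher and 3 lower genes of 12 (median log2 ratio 0.31), shares above the 2.06% and 1.72% of all genes, among them *Sema6a* higher (73.7 and 69.0 CPM against 32.7 and 30.7) and *Sema4a* lower (18.3 and 17.0 against 59.4 and 56.6). Of 10 checkpoint genes, *Cd276*, B7-H3, was higher (83.8 and 83.1 CPM against 39.0 and 38.2). Of 18 macrophage transcription factor genes, *Bhlhe41* was higher (31.1 and 24.7 CPM against 13.1 and 10.2). Of 9 osteoclast differentiation genes, 8 S100 genes, 7 hypoxia genes and 20 immediate-early genes, 0 passed the limit in either direction, with medians of 0.09, -0.42, 0.03 and -0.62.

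The members included cells with and without *Vsig4* UMIs. With β-glucan 108 members (22.3%) had no *Vsig4* UMI and 323 (66.7%) had at least 10, and with PBS 90 (23.7%) and 245 (64.6%). The median depths were 15546 and 15963 UMIs with β-glucan and 17665.5 and 19780 with PBS. Cells without *Vsig4* had to enter through *S100b* and *Ecscr*, so the selection bears on this comparison, also for genes that go with those, and the values are a description. In the β-glucan library *Sparc* was at 1060 CPM in the *Vsig4*-negative members and 1111 in those with at least 10 UMIs, and in the PBS library at 1081 and 1055. *Olfml3* was at 347 and 340 CPM in the first library and at 414 and 395 in the second, and *Pmepa1* at 1835 and 1761, and at 2065 and 1926. All of these were far above the levels in the other macrophages (92.7, 75.1 and 417 CPM with β-glucan).

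Of 3743 genes of at least 50 CPM in either kind of member in both libraries, 0 were at least 2-fold higher and 1 was at least 2-fold lower with *Vsig4* in both libraries. The one was *Cd52*, a small surface glycoprotein of leukocytes, at 117 CPM without and 56.3 with *Vsig4* in the β-glucan library and at 159 and 60.4 in the PBS library. *Apoe*, apolipoprotein E, was at 5029 and 2709 CPM and at 3942 and 2825. On the other side, *Klf12* was at 82.9 CPM without and 150 with *Vsig4* with β-glucan, and at 58.8 and 119 with PBS. *Cx3cr1* was higher without *Vsig4*, at 585 against 461 CPM and at 505 against 384. This division was made after the values had been seen.

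**Figure D3:**
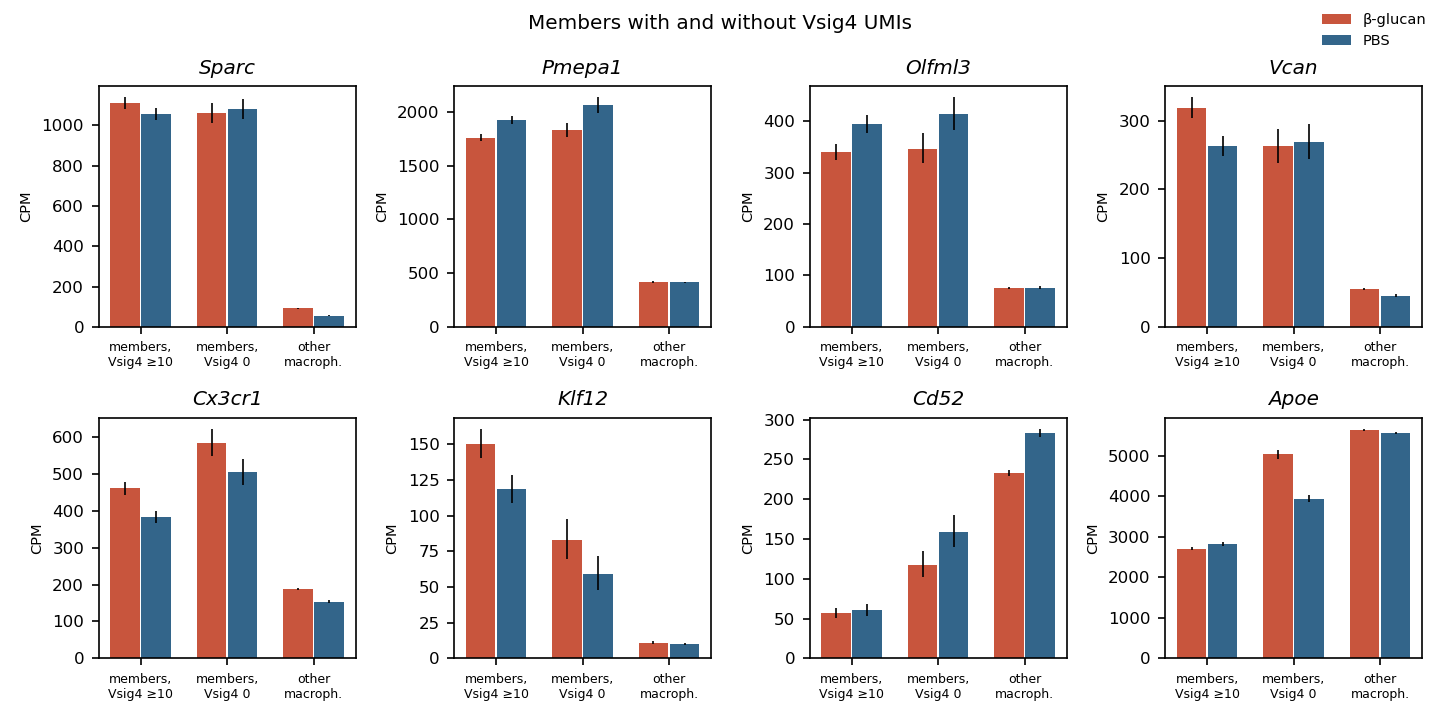
Levels in CPM of 8 genes in members with at least 10 *Vsig4* UMIs, in members with none and in the other macrophages, by library, with exact 95% Poisson intervals. *Sparc*, *Pmepa1* and *Olfml3* are alike with and without *Vsig4*, *Vcan* is higher with it with β-glucan alone (318 against 262 CPM), *Klf12* is higher with it, and *Cd52* and *Apoe* are lower with it.

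The libraries were then compared within the Vsig4 S100b macrophages. Of 4014 genes of at least 50 CPM in either library, 27 (0.673%) had a log2 ratio of β-glucan over PBS of at least 0.5 and 38 (0.947%) of at most -0.5, with a median over all genes of 0.02. At a minimum of 10 CPM the counts were 160 and 113, in the opposite order. The selecting genes, whose levels one shared limit set in both libraries, were at 1770 and 1847 CPM (*Vsig4*), 260 and 266 (*S100b*) and 88.0 and 81.7 (*Ecscr*). *Sparc* had a log2 ratio of 0.04 (-0.01 to 0.08) in the members and of 0.75 (0.68 to 0.82) in the other macrophages. Its log2 ratio of members over other macrophages was 3.54 with β-glucan and 4.26 with PBS. Without cells holding at least 3 UMIs of markers of another cell type, these were 4.27 and 4.45, closer to each other. The part of such cells in the 0.75 was not tested. Among the other groups, set F was at 178 and 68.2 CPM, and set C at 165 and 25.6.

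Several genes were higher with β-glucan, *Mitf* in most of the cells. *Mitf*, the transcription factor of melanocytes, osteoclasts and lysosomal genes, was at 562 CPM in β-glucan members and 368 in PBS members, a log2 ratio of 0.61 (0.54 to 0.68). It had a UMI in 97.1% and 95.8% of the members, its median per 10000 UMIs was 4.86 and 3.19. At 2000 UMIs it was seen in 56.6% and 48.8% of the members and in 4.41% and 1.84% of the B cell-like cells. The log2 ratio in the other 7 groups lay between 0.71 in set G and 0.83 in set C. *Pdgfc*, a platelet-derived growth factor gene, was at 291 and 179 CPM (0.70, 0.60 to 0.80), and *Nrp1*, neuropilin-1, a receptor for semaphorins and VEGF, at 522 and 350 (0.58, 0.50 to 0.65). *Il15*, a cytokine gene, was at 83.9 and 55.1 CPM (0.61, 0.43 to 0.79).

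*Gcnt1*, which encodes an enzyme that branches O-glycans, was at 66.7 CPM in β-glucan members and 36.4 in PBS members, a log2 ratio of 0.87 (0.66 to 1.09). In the other macrophages it was at 70.3 and 54.0 CPM (0.38, 0.31 to 0.45). *Cep128*, a centriole protein gene, was at 63.3 and 38.7 CPM (0.71, 0.50 to 0.93), and in the other macrophages at 67.1 and 56.9 (0.24). *Kcnip4* had opposite signs, at 116 and 78.0 CPM in the members (0.57, 0.42 to 0.72) and at 15.5 and 20.5 in the others (-0.40, -0.54 to -0.26). In the 19 PBS members of high *Retnla* it was at 281 CPM, against 63.9 in the other PBS members. Without those cells its ratio in the members was 0.86 (0.69 to 1.03). Without *Ecscr* in the score it was 0.39, under the limit. Set G, which also held cells of high *Retnla*, was at 33.1 and 55.5 CPM.

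*S100a8*, *S100a9* and *Il1b* had the highest ratios, and that of *S100a8* rested on few cells. *S100a8*, a subunit of calprotectin, was at 62.3 and 25.1 CPM (1.31, 1.07 to 1.57), *S100a9* at 65.4 and 28.7 (1.19, 0.96 to 1.43) and the interleukin-1β gene *Il1b* at 58.4 and 26.5 (1.14, 0.90 to 1.39). The 10 cells with most *S100a8* held 91.9% of its UMIs with β-glucan and 90.6% with PBS. At 2000 UMIs per cell *S100a8* was seen in 2.89% and 1.58% of the members and in 3.31% and 2.30% of the B cell-like cells, and *Il1b* in 2.48% and 1.32% against 4.04% and 1.84%, so neither was above that background. *S100a8* and *S100a9* are defining genes of neutrophils, whose 6 markers summed to 158 and 69.0 CPM in the members and to 418 and 139 in the other macrophages, with *S100a9* the most abundant in the members and 0 markers at 0. Without cells holding at least 3 UMIs of markers of another cell type, *Il1b* was lower with β-glucan (log2 ratio -0.88), and the ratios of *S100a8* and *S100a9* were 0.81 and 0.44. On cells thinned to 8000 UMIs the 3 log2 ratios were 0.23, -0.07 and -0.06. The summed B cell markers (26.9 and 2.22 CPM) and mast cell and basophil markers (89.1 and 5.54 CPM, with *Mcpt4* at 37.9 and 2.36) were also higher in the β-glucan members. Without the cells holding at least 3 UMIs of such markers, 18 of the 19 named β-glucan ratios shown here kept their direction and 17 stayed past the limit.

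Lower with β-glucan were *Retnla*, *Slc7a2*, MHC class II genes and immediate-early genes. *Retnla*, which encodes the secreted protein RELMα, was at 8.76 CPM in β-glucan members and 1271 in PBS members, a log2 ratio of -7.18 (-7.54 to -6.84). *Slc7a2*, a cationic amino acid transporter gene, was at 77.3 and 583 CPM (-2.92, -3.04 to -2.79). In the other macrophages *Retnla* was at 365 and 966 CPM and *Slc7a2* at 13.4 and 253. *AA467197* was at 18.4 and 56.9 CPM (-1.63, -1.91 to -1.36). *H2-Ab1* (77.3 and 404 CPM), *H2-Eb1* (54.4 and 257) and *Cd74* (228 and 1042) were 3 of the 3 measured genes of the MHC class II list, with a median log2 ratio of -2.24, and were all lower, against 0.947% of all genes.

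**Figure D4:**
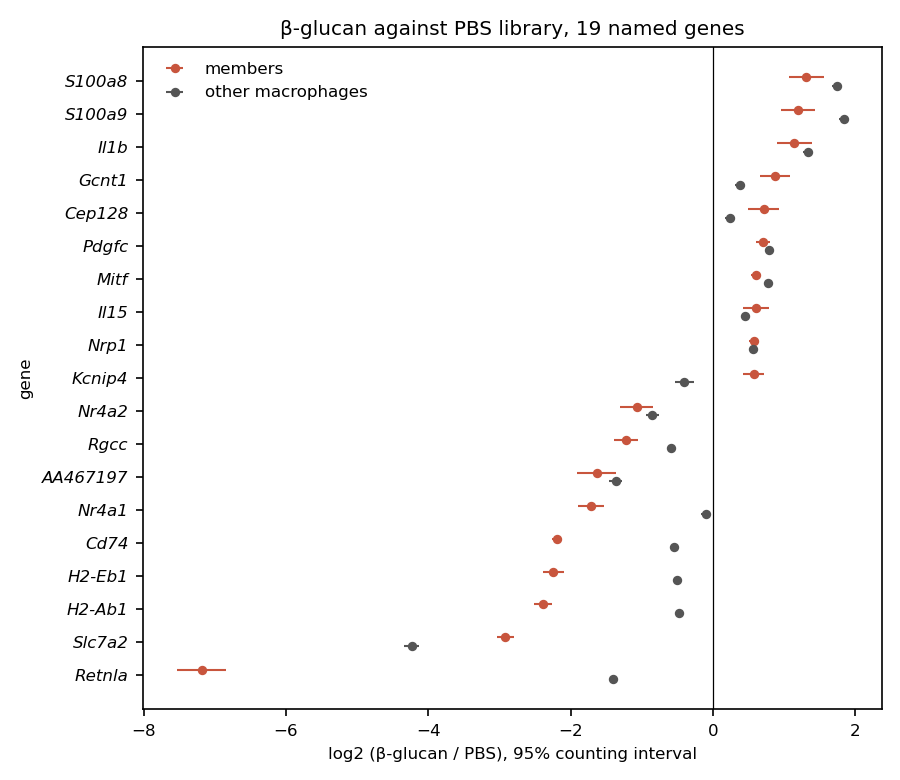
Log2 ratio of β-glucan over PBS with 95% counting intervals for 19 of the genes of highest and lowest ratio in the members, in the members (red) and in the other macrophages (grey). *Retnla* and *Slc7a2* are lowest, *Nr4a1* is near 0 in the other macrophages, and *Kcnip4* has opposite signs.

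The *Retnla* ratio came mostly from a small share of the PBS cells. With PBS, 19 of 379 members (5.01%, 3.04 to 7.72%) had at least 50 *Retnla* UMIs, and with β-glucan 0 of 484, which allows a share of up to 0.620% by 3 counts (exact upper limit 0.759%). The 19 cells had a median of 24919 UMIs and a median score of 1.11. In them *Retnla* was at 19253 CPM and *Slc7a2* at 5989, against 19.9 and 207 CPM in the other PBS members. This limit was set after the values had been seen. Without such cells the log2 ratio of β-glucan over PBS in the members was -1.18 (-1.62 to -0.75) for *Retnla* and -1.42 (-1.56 to -1.28) for *Slc7a2*. The remaining *Retnla* levels, 8.76 and 19.9 CPM, were under those of the B cell-like cells (18.2 and 26.0 CPM). *AA467197* no longer passed the limit, at -0.12 (-0.47 to 0.23). *H2-Ab1* and *Cd74* were then at -1.29 (-1.43 to -1.15) and -0.84 (-0.93 to -0.76).

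The 19 cells also differed from the other PBS members in genes beside the one that chose them. *Flt1*, a VEGF receptor gene, was at 614 CPM against 10.5, the ribonuclease gene *Rnase2a* at 695 against 0.741, and *Anxa8*, an annexin gene, at 228 against 7.26. *Cd74* was at 10137 CPM against 409. *Cx3cr1* was at 68.2 CPM against 437, and *Ctla2a* at 8.52 against 138. *Vsig4* was at 398 CPM against 1948 and *S100b* at 334 against 261. Such cells were also found outside the members. With PBS they made up 11.4% of set G (58 of 509), 3.82% of set B (12 of 314), 2.91% of set D (8 of 275) and 2.56% of set F (11 of 429). With β-glucan they made up 4.60% of set G, 0.585% of set B, 0.622% of set D and 0 of 516 cells of set F, which allows up to 0.581% by 3 counts (exact upper limit 0.712%). Set E had 1.37% with PBS and 0.542% with β-glucan, the no-set cells 2.24% and 1.83%, and set C had 0 such cells in either library.

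**Figure D5:**
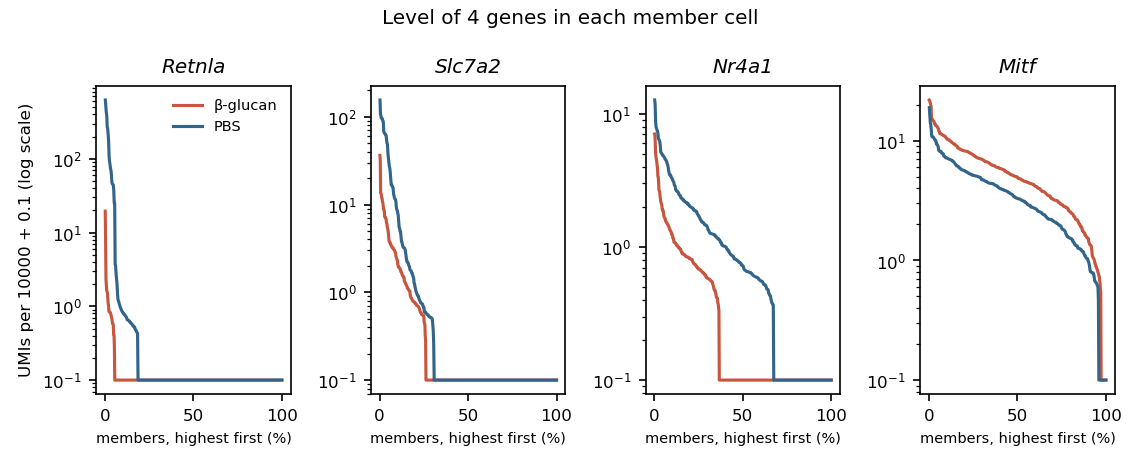
UMIs per 10000 plus 0.1 (log axis) of 4 genes in every member, ordered from the highest cell to the lowest, by library. *Retnla* and *Slc7a2* reach their highest levels in a few PBS cells, while *Nr4a1* is lower and *Mitf* higher with β-glucan over most of the cells in which they were detected.

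*Nr4a1* differed between the libraries in the members more than in the other macrophages, and over many cells. *Nr4a1* encodes the orphan nuclear receptor NUR77, an immediate-early gene. Members held 38.5 CPM of it in the first library and 126 in the PBS library, a log2 ratio of -1.71 (-1.90 to -1.52), and at 64.0 and 68.5 CPM in the other macrophages (-0.10, -0.17 to -0.03). A UMI was seen in 36.6% of the β-glucan members and 67.3% of the PBS members, and in 23.4% and 45.7% at 8000 UMIs per cell. At 2000 UMIs the shares were 6.82% and 21.1%, beside 7.72% and 8.29% in B cell-like cells. Those cells held 76.4 and 60.3 CPM of *Nr4a1*. Their own expression cannot be told apart from free RNA here, so they set no background for this gene. Among the other groups, *Nr4a1* was lower with β-glucan in set F (29.1 and 61.8 CPM, -1.09) and in the no-set cells (43.4 and 82.1 CPM, -0.92) and higher in set G (75.7 and 52.4 CPM, 0.53). Without the cells of high *Retnla* the ratio in the members was -1.73. *Nr4a1* overlaps 1 other annotated gene on its strand, so its count may be shared, as may those of *Pdgfc*, *Nrp1*, *Cd74*, *H2-Ab1*, *H2-Eb1*, *AA467197*, *Elmo1*, *Rock2*, *Mapk14* and *Csf1r*.

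Further immediate-early genes were lower in the same direction. Of 17 measured genes of that list, 5 passed the limit downward and 0 upward, against 0.947% and 0.673% of all genes, and 2 of the 17 were above 0 (median log2 ratio -0.35). *Dusp1*, a MAP kinase phosphatase gene, was at 116 and 237 CPM (-1.04, -1.15 to -0.92), *Junb* at 194 and 335 (-0.79, -0.88 to -0.70), *Klf4* at 420 and 694 (-0.72, -0.79 to -0.66) and *Btg2* at 33.9 and 58.6 (-0.79, -1.01 to -0.57). *Fos* was at 256 and 320 CPM and *Jun*, on the other side, at 119 and 97.8. In the other macrophages *Junb* (284 and 307 CPM) and *Btg2* (83.3 and 79.6 CPM) had log2 ratios of -0.11 and 0.06, while *Dusp1* had -0.32 and *Klf4* -0.50. *Nr4a2*, a relative of *Nr4a1*, was at 29.1 and 61.1 CPM (-1.07, against -0.85 in the others), and *Rgcc*, a cell cycle regulator gene, at 53.8 and 126 (-1.22, against -0.60). Genes of this list are also known to change while tissue is digested and sorted. The libraries were single, so handling cannot be told apart from treatment.

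Of the 16 genes that the study compares between the groups, 13 had a log2 ratio above 0 in the members (median 0.19), *Mitf* passed the limit upward and *Nr4a1* downward, against 0.673% and 0.947% of all genes. *Mef2c*, a transcription factor gene, was at 578 and 435 CPM (0.41, 0.34 to 0.47), the myosin Va gene *Myo5a* at 777 and 601 (0.37, 0.31 to 0.43), the prostaglandin D synthase gene *Hpgds* at 216 and 178 (0.28, 0.17 to 0.38) and *Plekhg5*, a guanine nucleotide exchange factor gene, at 221 and 173 (0.36, 0.25 to 0.46). *Elmo1*, an engulfment gene, was at 1329 and 1199 CPM (0.15, 0.11 to 0.19) and in the other macrophages at 937 and 757 (0.31). *Clec5a*, a DAP12-coupled lectin receptor gene, was at 144 and 145 CPM (-0.00, -0.12 to 0.12), and *Rock2*, a kinase gene of the cytoskeleton, at 312 and 310 (0.01). *Klf2* was at 379 and 466 CPM (-0.30, -0.37 to -0.23). The other 6, *Cx3cr1*, *Vav3*, *Map3k5*, *Mapk14*, *Ern1* and *Csf1r*, lay between 0.15 and 0.25.

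In each of the other lists, at most 2 genes passed the limit. Of 6 hypoxia genes 2 were lower, the glycolytic *Pgk1* (73.2 and 110 CPM) and the mitophagy gene *Bnip3* (40.1 and 56.9), against 0.947% of all genes, and 0 of 6 were above 0. Without the 19 PBS cells of high *Retnla*, neither passed, with log2 ratios of -0.32 (-0.49 to -0.16) and -0.20 (-0.42 to 0.03). Of 7 semaphorin-family genes 2 were higher, *Nrp1* and *Sema6d* (53.9 and 37.1 CPM), against 0.673% of all genes, and of 13 transcription factor genes *Mitf* was higher and *Cebpb* lower (244 and 383 CPM). *Lpl* (50.1 and 80.9 CPM) was the 1 of 10 lipid handling genes that passed, and without those cells it did not (-0.26, -0.46 to -0.06). Of the 5 lining, 9 matrix, 5 complement, 13 phagocytic, 7 osteoclast and 8 checkpoint genes measured, 0 passed in either direction. Among them, *Fn1* was at 2981 and 4011 CPM (-0.43, -0.45 to -0.40).

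The ratio also moved with the length of the gene. The median log2 ratio of β-glucan over PBS in the members was -0.07 over 678 genes spanning under 10 kb, -0.02 over 1029 genes of 10 to 30 kb, 0.04 over 1421 genes of 30 to 100 kb and 0.10 over 883 genes of at least 100 kb. Genes past the limit upward made up 0.295% of those under 10 kb and 1.70% of those of at least 100 kb. Genes past it downward made up 1.77% and 0.566%. *Mitf* spans 214 kb, *Nrp1* 146 kb and *Pdgfc* 178 kb, and *Junb* 4.25 kb, *Klf4* 5.39 kb and *Nr4a1* 20.7 kb. The part of gene length in these ratios was not tested.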

How the data were processed

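Sorted synovial CD45+CD11b+ cells of arthritic mice given β-glucan or PBS went through droplet capture with 3' libraries, 1 for each group. The authors deposited UMI counts per gene and barcode, made with Cell Ranger 7.0.0 (submitters' processing notes) on GRCm39 and not normalized. The intron setting is not given in the sources used here. Members and gene lists were chosen with earlier results of these data known. UMIs were summed over cells by library, scaled to CPM and compared as log2 ratios with exact 95% binomial intervals of the sums. Shares have exact Clopper-Pearson intervals. Depths were 81611849 and 73874602 UMIs. Cells of 1 library are not replicates, so no p-value was computed.

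Named genes were the 20 highest and 10 lowest in members, ordered by the weaker ratio. The 20 needed at least 50 CPM in the members of both libraries, the 10 at least 50 CPM in the other macrophages of both. The 10 highest and 10 lowest β-glucan ratios, the 16 genes the study compares, the label markers and 2 to 4 genes per list were added. The ranked genes left out the selecting, mitochondrial, ribosomal protein and unnamed genes. Results for a few items that are withheld are not reported here. Some list genes outside this rule (*Tjp1*, *Itgb8*, *Ly6c2*, *Plac8*, *Fos*, *Jun*, *C3ar1*, *Itgam*, *Fn1*, *Mrc1*, *Cd163*) were named after their values were seen. Alternatives covered cell filters, other cell types, the score, thinning and scaling (edgeR 4.0.16 for TMM). Scrublet (scanpy 1.11.5) marked 0 and 2 cells (0.0439% of the PBS cells) and so did not work, and doublets were kept. Intervals and selection were run on simulated independent Poisson counts. Those lack the clustering of UMIs in few cells seen for *Retnla* and *S100a8*, so the intervals of such genes were not checked. Of 32524 gene IDs, 31870 were found in GENCODE vM39, the source of starts and spans. Scripts used Python 3.11.15, numpy 2.4.6, scipy 1.17.1 and pandas 2.3.3.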

Additional observations from a re-analysis of the deposited data

Results flagged for a closer look

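*Kcnip4* had a log2 ratio of β-glucan over PBS of 0.57 (0.42 to 0.72) in the Vsig4 S100b macrophages and of -0.40 (-0.54 to -0.26) in the other macrophages, a difference of 0.97 with opposite signs that was not tested. The ratio in the members was 0.86 without the cells of high *Retnla* and 0.39 without *Ecscr* in the score. *Btg2* had -0.79 (-1.01 to -0.57) in the members and 0.06 (0.00 to 0.13) in the others, a difference of -0.85, which was not tested either. Each group was 1 library, so both intervals cover counting error only.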

How the results depend on the processing

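Every log2 ratio of the 20 highest and 10 lowest genes of the members kept its direction and stayed past the 2-fold limit in both libraries in the 17 alternatives that recomputed it. The alternative without cells called by Scrublet, counted here and in the next sentence, left out 0 members and is no check. Of 19 named β-glucan ratios past the limit, 16 to 19 stayed past it in each of 16 alternatives, and the reversed ones were *Il1b* without cells holding markers of another cell type (-0.88) and on cells thinned to 8000 UMIs (-0.0574), and *S100a9* on thinned cells (-0.0660). *Mitf* stayed between 0.55 and 0.63 and *Nr4a1* between -1.83 and -1.55. The member share moved beyond its interval with a score limit of 1 (8.86% with β-glucan and 9.38% with PBS), with a lead of at least 0.25 over the second score (9.50% and 10.8%) and, with β-glucan only, when *Vsig4* (10.4%), *S100b* (12.8%) or *Ecscr* (12.9%) was left out of the score. Without *S100b* the β-glucan share was above the PBS share of 12.2%. Counts moved by over 1.5 times with the CPM minimum alone. At 10 CPM, 189 genes were lower in members, 160 were higher with β-glucan and 113 lower. At 100 CPM, 55 were higher and 32 lower in members, and 11 were higher and 24 lower with β-glucan. Without the cells of high *Retnla*, chosen after the values had been seen, 22 genes were higher and 29 lower with β-glucan. Counts of UMIs limit genes under about 20 CPM, and 1 library per group limits every comparison of β-glucan with PBS. No paired analysis was possible because each group was 1 library.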
